A study of Mus musculus with 12 samples.

Results

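Endoderm and hematopoietic mesoderm are the cell layers of the early embryo that give rise, respectively, to the lining of the gut and yolk sac and to the first blood and vessel cells. They were compared here through 6 of the 12 RNA-seq libraries of a study on Notch activation and cardiac commitment: the 3 libraries titled endoderm and the 3 titled hematopoietic mesoderm, chosen by their titles. All 12 libraries came from mouse embryos at stage E7.25 of the line Foxa2Cre:Rosa26-YFP, in which a Cre recombinase driven by Foxa2 switches on yellow fluorescent protein, so both groups carried the same alleles. No treatment is labelled for either. Per the labels, endoderm was sorted as EPCAM-positive and hematopoietic mesoderm as KDR-positive cells. The labels do not say whether the 3 libraries of a type came from separate embryos, litters or pools. The edgeR p-values measure the spread between libraries of a type, estimated per gene over all 4 cell types together. That spread may be technical. RNA was extracted and amplified with kits made for very small samples, per the labels' protocols. Since the libraries are bulk samples, fewer cells that express a gene and less RNA per cell cannot be told apart.

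At gastrulation, cells of the epiblast pass through the primitive streak and lose their epithelial junctions. Those that settle as definitive endoderm become epithelial again, under the control of Foxa2, Sox17, Otx2 and other transcription factors, and join the visceral endoderm, an older layer that takes up and secretes lipids and proteins for the embryo. Those that leave as the earliest mesoderm reach the yolk sac, where Kdr, a receptor for vascular endothelial growth factor, marks the common precursors of blood and endothelium, and where Etv2, Tal1, Lmo2, Gata2 and Runx1 direct their fate. Foxa2 and Foxj1 also mark the node, a small ciliated pit from which the notochord forms.

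The libraries of the 2 types differed in spread as well as in content. Gene counts ran from 5976296 to 7888631 per endoderm library and from 4472800 to 5857568 per hematopoietic mesoderm library, so that 3 counts were worth 0.357 to 0.477 and 0.52 to 0.723 CPM (counts per 1e6 counts in genes, with library totals scaled by the trimmed mean of M-values), the unit of all levels below. Genes with at least 1 count numbered 18582 ± 35.5 (SD, n = 3) in endoderm and 13217 ± 1108 in hematopoietic mesoderm. After thinning to equal depth they numbered 17927 and 13056 (exact two-sided permutation p = 0.1, the smallest that 3 against 3 libraries can give). The biological coefficient of variation was 0.394 within endoderm and 1.155 within hematopoietic mesoderm. Of the genes that reached 100 counts in some library of a type, 0.518% had 3 or fewer in another library of that type in endoderm, against 14.96% in hematopoietic mesoderm. Pearson correlations across genes ran from 0.924 to 0.93 among endoderm libraries and from 0.745 to 0.811 among hematopoietic mesoderm libraries. Hematopoietic mesoderm library 3 stood apart in several genes named below, so results that rest on it are also given without it.

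The sort markers and the defining genes of each type were examined first. Kdr (ENSMUSG00000062960.7, chr5:75932827-75978458, minus strand, GRCm38) was at 665, 700.0 and 965 CPM in the hematopoietic mesoderm libraries and at 10.02, 4.79 and 16.4 CPM in the endoderm libraries. The difference, as endoderm minus hematopoietic mesoderm, was -6.21 ± 0.38 on the log2 scale (SE, edgeR adjusted p = 2.24e-06). Epcam, an epithelial adhesion protein and the gate for endoderm, was at 240.2, 204 and 217 CPM in endoderm and at 21.4, 1.04 and 68.9 CPM in hematopoietic mesoderm. The groups did not overlap, yet the difference of 2.86 ± 0.93 did not pass (edgeR adjusted p = 0.0848). Without hematopoietic mesoderm library 3, the adjusted p for Epcam was 0.0293.

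Foxa2, whose history the mouse line records, was at 52.3, 58.8 and 62.3 CPM in endoderm and had 1 count in each hematopoietic mesoderm library. Its ratio was 285-fold, with a 95% counting interval of 97.4- to 1385-fold that covers counting error only (edgeR adjusted p = 0.0294). Sox17, an endoderm factor that is also expressed in early vessels, was at 155, 139 and 111 CPM in endoderm and at 0, 32.0 and 21.0 CPM in hematopoietic mesoderm (edgeR adjusted p = 0.298). Pdgfra, a receptor of paraxial and cardiac mesoderm, stayed at 8.03 to 17.2 CPM in endoderm and 1.93 to 48.3 CPM in hematopoietic mesoderm, with overlapping libraries. In the cardiac mesoderm libraries of the series it averaged 359 CPM in the YFP-positive and 307 CPM in the YFP-negative fraction.

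The defining markers of blood were unevenly present. Tal1 was at 471, 356 and 270.5 CPM in hematopoietic mesoderm and at 0.647 to 3.09 CPM in endoderm. Gata1, the erythroid factor, was at 74.2 and 46.6 CPM in hematopoietic mesoderm libraries 1 and 2 but at 0.21 CPM in library 3. Pecam1, an endothelial adhesion protein, followed the same split, at 21.4, 28.7 and 0.21 CPM. Neither Gata1 nor Pecam1 was called against endoderm, with all libraries or in any of the 6 fits without 1 library, including that without library 3. Over the alternatives the lowest edgeR adjusted p was 0.287 for Gata1 and 0.254 for Pecam1. The embryonic globin Hbb-bh1 was at 11.3, 7.27 and 0 CPM there and at 0 in every endoderm library. None of 8 globin genes reached the expression filter.

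**Figure D1:**
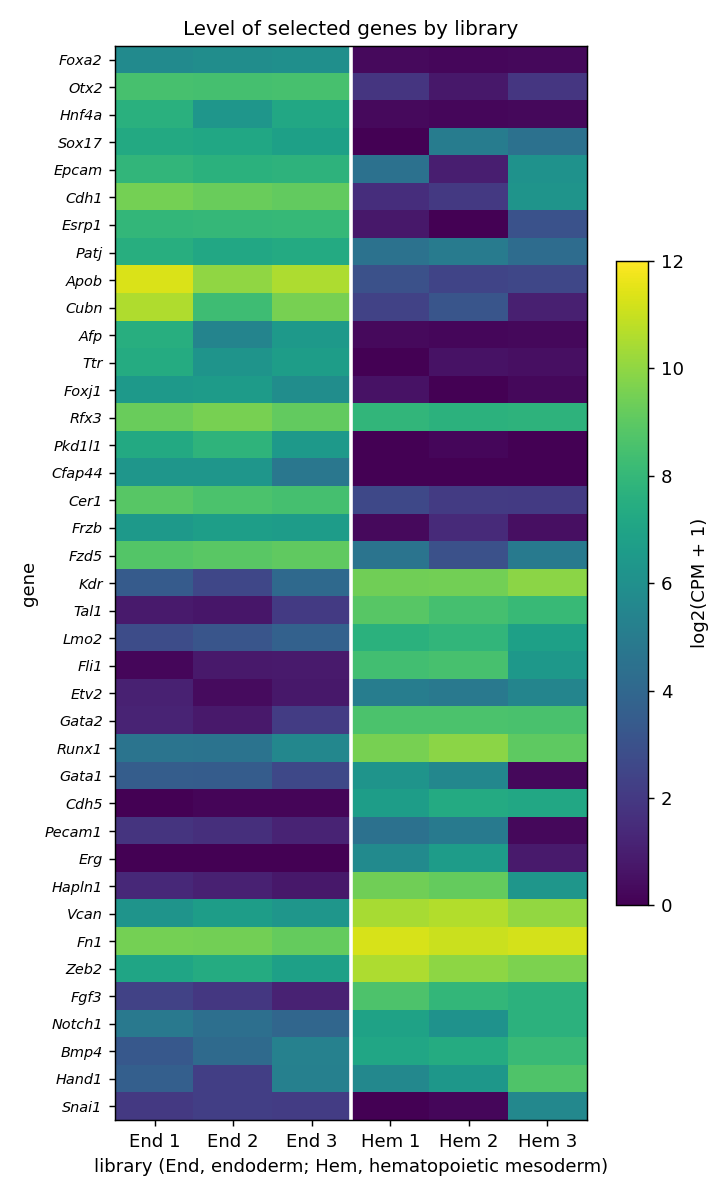
Level of selected genes in each library, as log2(CPM + 1), with the 3 endoderm libraries (End) to the left and the 3 hematopoietic mesoderm libraries (Hem) to the right of the white line. Endoderm libraries resemble each other, while Gata1, Pecam1 and Erg are low and Hand1 and Snai1 high in hematopoietic mesoderm library 3.

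Across the 14170 genes tested, 800 differed between the types at an adjusted p under 0.05 (edgeR quasi-likelihood test), which is 5.65%. Of these, 457 were higher in endoderm (3.23% of genes tested) and 343 higher in hematopoietic mesoderm (2.42%), and the libraries of the 2 types did not overlap in 798 of the 800. Among all genes tested, 34.3% did not overlap, 23.4% with endoderm higher and 10.9% with hematopoietic mesoderm higher. With the replicate number as a block, which also stands for a date string shared by same-numbered files, 545 genes passed, 268 of them higher in endoderm and 277 in hematopoietic mesoderm. Without endoderm library 1, 2 or 3, 184, 188 and 180 genes passed, and without hematopoietic mesoderm library 1, 417 passed.

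The differences had unlike shapes in the 2 directions. The median log2 fold change was 7.48 over the genes higher in endoderm and -1.18 over those higher in hematopoietic mesoderm. Of the 457 genes higher in endoderm, 156 (34.1%) had no count in any hematopoietic mesoderm library, and 9 differed by less than 2-fold. Of the 343 higher in hematopoietic mesoderm, 2 had no count in endoderm, and 146 differed by less than 2-fold. The number of genes detected per library moved with this asymmetry, and its part in the result was not tested.

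**Figure D2:**
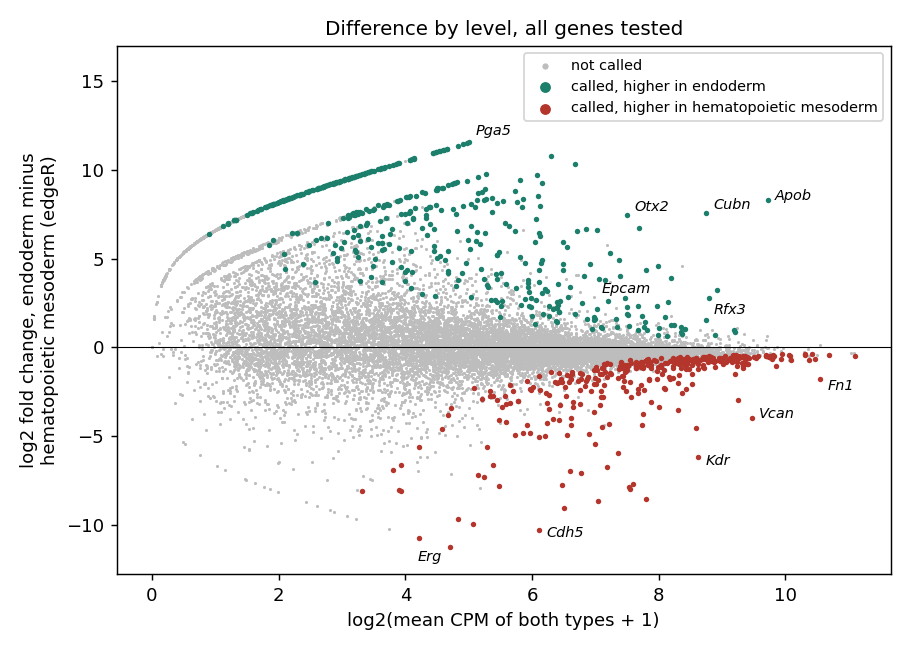
Log2 fold change (endoderm minus hematopoietic mesoderm, edgeR) against log2(mean CPM of both types + 1) for the 14170 genes tested. The 457 genes higher in endoderm (green) include a curved edge of genes with no count in hematopoietic mesoderm, and many of the 343 higher in hematopoietic mesoderm (red) are abundant genes with small changes.

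Among the 15 genes with the largest changes toward endoderm, Pga5, a pepsinogen precursor of a digestive protease, was at 63.0, 51.5 and 71.4 CPM in endoderm and had no count in hematopoietic mesoderm, which makes it at least 99.3-fold higher against a floor of 3 counts per library (edgeR adjusted p = 0.00817). The iron exporter Slc40a1 was at least 66.3-fold higher and the phosphate transporter Slc34a2 at least 77.9-fold. Enpp3 and Enpp2, both ectonucleotide pyrophosphatases, the latter known as the lysophosphatidic acid producer autotaxin, were at least 88.1-fold and 68.8-fold higher. The fibrillar collagen gene Col2a1, at 43.4, 45.3 and 51.1 CPM in endoderm, was at least 74.7-fold higher. The other 9 of the 15 genes with the largest changes in this direction were Cfap44, Miat, Fzd6, Thpo, Mpzl2, Lrriq1, Spock2, Pla2g12b and Pkd1l1. Of the 15, all but Pkd1l1 had no count in any hematopoietic mesoderm library, and Pkd1l1 had 1.

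Of the 15 genes with the largest changes toward hematopoietic mesoderm, 8 belong to the lists of hemangioblast factors and endothelial genes described below. These lists held 37 and 60 tested members, partly shared, among the 14170 genes tested. They were compiled with earlier results of these data known, so the overlap is a description only. Erg, an ETS transcription factor of endothelium, had no count in endoderm and was at 52.0, 97.5 and 0.84 CPM in hematopoietic mesoderm. It was at least 123-fold higher there (edgeR adjusted p = 0.0444), and its adjusted p was 0.15 at the highest over the alternatives. Cdh5, the cadherin of endothelial junctions, was at 101, 160 and 146 CPM in hematopoietic mesoderm and had 2 counts in all of endoderm, a ratio of 1554-fold with a 95% counting interval of 430- to 12844-fold. Hapln1, which links hyaluronan to proteoglycans, was at 676, 570 and 78.3 CPM against 0.713 to 1.59 CPM in endoderm. The Hox gene Hoxd1 was at 47.7, 36.0 and 81.1 CPM, with 1 count in all of endoderm. For Hapln1 and Erg, library 3 was the lowest of the type, and for Hoxd1 it was the highest. The other 11 of the 15 genes with the largest changes in this direction were Fev, Myzap, Scube2, Fli1, Ptpn7, Unc5c, Tal1, Ripor2, Nrip3, Gata2 and Inka1. Fev, an ETS gene, was the only other gene called in this direction with no count in endoderm, at 9.88, 42.3 and 52.7 CPM in hematopoietic mesoderm.

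Transcription factors of endoderm and the organizer were called in 1 direction. Of 28 tested members, 11 (39.3%) were higher in endoderm and none in hematopoietic mesoderm, with a median log2 fold change of 6.72 against 0.07 over all genes tested. Otx2, a homeodomain factor of anterior endoderm and epiblast, was at 362, 346 and 365 CPM in endoderm and at 2.65, 0.693 and 2.73 CPM in hematopoietic mesoderm (log2 fold change 7.49 ± 0.61, edgeR adjusted p = 2.82e-05). Hnf4a, a nuclear receptor of visceral endoderm and liver, was at 196, 77.7 and 147 CPM in endoderm, with 1 count in each hematopoietic mesoderm library. The libraries of the types did not overlap for either gene.

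Among the organizer factors, Lhx1, Foxj1 and Noto were called. Lhx1, needed for head organization, was at 398, 440 and 425 CPM in endoderm and at 4.82, 53.0 and 3.78 CPM in hematopoietic mesoderm. Noto, a factor of node and notochord, was at 13.5, 25.4 and 10.6 CPM, with a single count in hematopoietic mesoderm. Gsc and Foxa3 had no count in hematopoietic mesoderm but missed the threshold (edgeR adjusted p = 0.0562 and 0.0535). The GATA factors that endoderm shares with mesoderm did not separate the types. Gata4 was at 93.3 to 143 CPM in endoderm and 95.6 to 255 CPM in hematopoietic mesoderm, and Gata6 at 74.1 to 89.7 and 31.5 to 172 CPM. Brachyury, T, which marks the primitive streak and notochord, was at 105 to 228 CPM in endoderm and 213 to 374 CPM in hematopoietic mesoderm, overlapping as well. Without any 1 of the endoderm libraries, 5 of the 11 calls remained, and without any 1 of the hematopoietic mesoderm libraries, 6 or 7 remained.

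The forkhead family, whose members bind a shared core sequence, gave calls in 1 direction. Of its 29 tested members, 6 were higher in endoderm and none in hematopoietic mesoderm: Foxj1, Foxa1, Foxa2, Foxd3, Foxc1 and Foxr2. That is 20.7%, against 5.65% over all genes tested. Foxa1, a partner of Foxa2, was at 62.8, 50.1 and 50.2 CPM in endoderm, with a single count in hematopoietic mesoderm. Foxc1, a mesoderm factor, was called at only 1.74 CPM on average in endoderm and no count in hematopoietic mesoderm, and its averages in the 2 cardiac fractions were 28.4 CPM (YFP-positive) and 15.7 CPM (YFP-negative). Without any 1 endoderm library, 1 of the 6 calls remained.

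Because forkhead factors differed, the bases upstream of called genes were searched for the forkhead core TGTTTAC on both strands. The search covered the 250 bases before the start in RefSeq's promoter table (GRCm38.p6), which held 332 of the genes higher in endoderm and 253 of those higher in hematopoietic mesoderm. The core was present in 4.82% of the former and 1.58% of the latter, against 2.77% of tested genes and 3.54% of all genes in the table. The bicoid-type core GGATTA, bound by Otx2 among others, was present in 7.83% and 3.56%, against 6.07% of tested genes and 7.21% of all genes. Matches of different motifs shared a base in 0.18% of all promoters and in none of the stretches printed. The following 4 stretches carry the forkhead core, in capitals on either strand, upstream of transcription factor and ciliary genes called higher in endoderm. They lie at chr12:57546226-57546272 (minus strand), chr10:44458953-44458998 (minus), chr16:22439727-22439773 (minus) and chr12:105705831-105705877 (plus).
Foxa1: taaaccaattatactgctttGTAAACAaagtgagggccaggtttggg
Prdm1: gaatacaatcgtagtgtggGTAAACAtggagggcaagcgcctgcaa
Etv5: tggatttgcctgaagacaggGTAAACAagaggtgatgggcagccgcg
Ak7: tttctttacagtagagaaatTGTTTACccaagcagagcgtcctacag
A match describes these letters only and is not evidence of binding. Prdm1, a repressor that acts in endoderm and germ cells, was at 176, 169 and 179 CPM in endoderm and at 8.19, 0.173 and 0.21 CPM in hematopoietic mesoderm. Etv5, an ETS factor that responds to FGF signals, was at 131, 151 and 142 CPM in endoderm and at 28.9, 8.83 and 43.3 CPM in hematopoietic mesoderm.

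Genes for secreted plasma proteins and lipid carriers, the products of visceral endoderm and later of liver, gave calls toward endoderm alone. Of 38 listed genes, 20 passed the filter and 6 of them were called. Apob (chr12:7977648-8016835, plus strand, GRCm38), the structural protein of lipoproteins, was at 2524, 1034 and 1483 CPM in endoderm and at 4.5 to 6.75 CPM in hematopoietic mesoderm (log2 fold change 8.30 ± 0.66, edgeR adjusted p = 2.59e-05). Afp, alpha-fetoprotein, was at 183, 41.8 and 86.9 CPM, with 1 count in each hematopoietic mesoderm library. Ttr, the thyroxine and retinol carrier transthyretin, was at 167, 72.4 and 100.3 CPM in endoderm and at most 0.52 CPM in hematopoietic mesoderm. Each of these was highest in endoderm library 1 and lowest in endoderm library 2, and the groups did not overlap.

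Apoa1, the main protein of high-density lipoprotein, followed the same order, at 196, 84.7 and 123 CPM in endoderm and at most 0.84 CPM in hematopoietic mesoderm. Apom and the fibrinogen chain Fgb were without a count in hematopoietic mesoderm, which puts them at least 35.8-fold and 28.9-fold above it. The summed level of the list ran from 1451 to 3662 CPM over the endoderm libraries and from 84.8 to 196 CPM over the hematopoietic mesoderm libraries. With limma voom, which weights libraries by their quality, Apob kept a log2 fold change of 8.11 but had an adjusted p of 0.706, and Afp one of 0.0985. Dropping 1 endoderm library left 4 of the 6 calls each time, and dropping 1 hematopoietic mesoderm library left 5 or 6.

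Receptors and proteases of uptake accompanied them. Of 35 tested genes for endocytic receptors and lysosomes, 6 were higher in endoderm and none in hematopoietic mesoderm. That is 17.1%, against 5.65% over all genes tested. Cubn, the receptor cubilin with which visceral endoderm takes up maternal proteins, was at 1497, 309 and 743 CPM in endoderm and at 4.1, 7.97 and 1.05 CPM in hematopoietic mesoderm (log2 fold change 7.57 ± 0.74, edgeR adjusted p = 0.000132). Dab2, its endocytic adaptor, was at 512 to 1095 CPM in endoderm and 40.2 to 178 CPM in hematopoietic mesoderm. The cathepsins Ctsc, Ctsh and Ctsl, which digest proteins in the lysosome, differed by 2.60 ± 0.36, 5.94 ± 1.33 and 1.17 ± 0.31 on the log2 scale. Lrp2, or megalin, a large receptor that works with Cubn, was at 73.0 to 232 CPM in endoderm and 0 to 52.5 CPM in hematopoietic mesoderm, without overlap and without passing (edgeR adjusted p = 0.228). With limma voom the adjusted p was 0.65 for Cubn and 0.16 for Dab2, so that 2 of the 6 calls remained. The median of the list was 0.56. Of the 6 calls, 3 remained without any 1 endoderm library and 4 or 5 without any 1 hematopoietic mesoderm library.

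**Figure D3:**
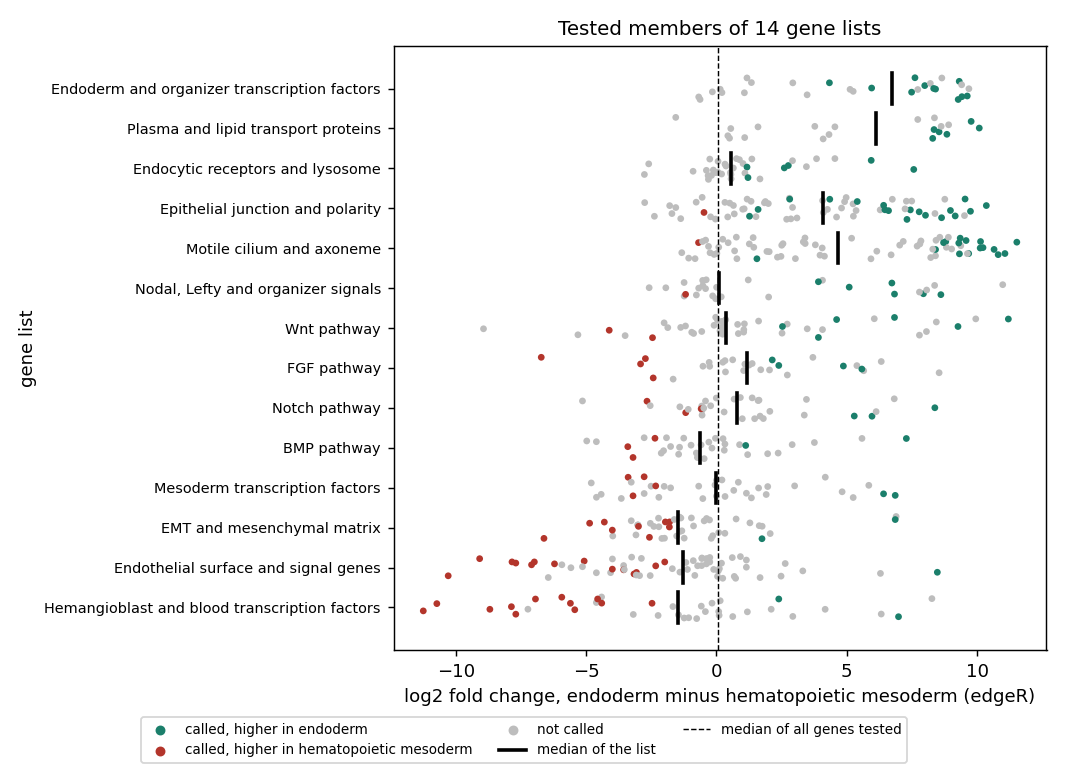
Log2 fold change of each tested member of 14 gene lists, with green and red points for members called higher in endoderm and in hematopoietic mesoderm, a black bar at each list's median and a dashed line at the median of all genes tested (0.07). Endoderm factor, plasma protein, epithelial and ciliary lists lie to the right, and blood, endothelial and mesenchymal lists to the left.

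Epithelial genes that were called lay mostly on the endoderm side. Of 65 tested genes for junctions, polarity, keratins and epithelial regulators, 18 were higher in endoderm, 1 in hematopoietic mesoderm and 46 did not pass, with a median of 4.07. The calls were uneven over the list. They took in 8 of 20 polarity and membrane traffic genes, but 1 of 12 adherens junction or desmosome genes and 1 of 4 keratins. Esrp1, a splicing regulator of epithelia, was at 245, 257 and 264 CPM in endoderm and at 0.723, 0 and 7.14 CPM in hematopoietic mesoderm. The polarity proteins Patj and Mpp5, partners at the apical membrane, differed by 2.81 ± 0.45 and 1.27 ± 0.19 on the log2 scale (edgeR adjusted p = 0.0046 and 0.00283). Grhl2 and Grhl3, transcription factors of epithelial sheets, the occludin gene Ocln, the apical myosins Myo5b and Myo5c and the membrane protease Tmprss2 were also called. Ocln had no count in hematopoietic mesoderm, and Tmprss2 was at 102 to 156 CPM in endoderm against at most 0.21 CPM.

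The claudins Cldn2 and Cldn7 were called among the 6 claudins tested, and all 6 had log2 fold changes above 0. Cdh1, or E-cadherin, was at 722, 608 and 556 CPM in endoderm and at 1.93, 2.94 and 72.5 CPM in hematopoietic mesoderm, and did not pass (edgeR adjusted p = 0.0759). Without hematopoietic mesoderm library 3 it passed, and it also passed with the replicate block (edgeR adjusted p = 0.0118). Epcam and Cdh1 were thus both at their highest within the type in that library. Tjp1, the junction scaffold ZO-1, went the other way, at 607 to 646 CPM in endoderm and 841 to 921 CPM in hematopoietic mesoderm, a difference of -0.48 ± 0.11. Of the 18 calls toward endoderm, 3 remained without any 1 endoderm library, 5 to 9 without any 1 hematopoietic mesoderm library and 8 with the replicate block.

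Motile cilium genes were called almost only on the endoderm side. Cilia of the node beat to drive the leftward flow that breaks left-right symmetry, and their assembly is directed by Foxj1 and Rfx factors. Of 68 tested members, 16 were higher in endoderm and 1, Mns1, in hematopoietic mesoderm, with a median of 4.67. Foxj1, the master regulator of motile cilia, was at 88.3, 95.9 and 57.9 CPM in endoderm and at 0.482, 0 and 0.21 CPM in hematopoietic mesoderm. Rfx3 (chr19:27761721-28011166, minus strand, GRCm38), which also serves non-motile cilia, was at 611, 752 and 552 CPM against 207 to 234 CPM, a smaller and more even difference of 1.55 ± 0.18 (edgeR adjusted p = 0.000454). Pkd1l1, a channel protein that senses the nodal flow, was at 155, 224 and 89.1 CPM in endoderm and had a single count in hematopoietic mesoderm (edgeR adjusted p = 0.000109).

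Structural parts of the axoneme were called from a hematopoietic mesoderm level at or near 0. Cfap44 was at 78.6, 77.4 and 26.3 CPM in endoderm with no count in hematopoietic mesoderm, at least 97.3-fold higher. Rsph4a, a head protein of the radial spokes, was at 76.8, 88.8 and 39.3 CPM, and the outer arm dynein Dnah5 was at 28.8, 34.8 and 10.5 CPM, at least 39.6-fold higher. Foxj1, Pkd1l1, Cfap44, Rsph4a and Dnah5 were each lowest in endoderm library 3. Of 19 tested genes named as cilia and flagella associated proteins, 6 were called, all toward endoderm, of which 0, 0 and 1 remained without endoderm library 1, 2 and 3 and 1 with the replicate block. Another node gene, Dnah11, did not separate the types, since hematopoietic mesoderm library 3 was at 95.8 CPM and the other 2 at 0 (edgeR adjusted p = 0.853). Without that library the log2 fold change of Dnah11 was 11.39 (edgeR adjusted p = 0.00711). Among the 16 calls toward endoderm, 4 to 6 remained without any 1 endoderm library, 6 to 10 without any 1 hematopoietic mesoderm library and 8 with the replicate block.

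The X-box, the sequence recognised by Rfx factors, was searched upstream by its consensus on both strands. This form was present in 1.51% of genes higher in endoderm and 1.58% of genes higher in hematopoietic mesoderm. It was present in 1.22% of tested genes and 1.01% of all genes in the table. Of the called ciliary genes in the table, 1 of 10 held it. That gene is Lrriq1, a leucine-rich repeat gene of ciliated cells, at chr10:103236323-103236361 (minus strand, GRCm38.p6), with the match in capitals.
Lrriq1: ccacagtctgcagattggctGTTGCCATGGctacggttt
Lrriq1 was at 39.8, 67.7 and 25.3 CPM in endoderm and had no count in hematopoietic mesoderm.

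The anterior endoderm and the node secrete antagonists of Nodal, BMP and Wnt signals. Of 12 tested antagonists in the Nodal and organizer list, 5 were higher in endoderm. Over the whole list of 28, the other 2 calls were Cfc1, a Nodal co-receptor gene, toward endoderm and Ptch1, the Hedgehog receptor gene, toward hematopoietic mesoderm, where the libraries of the types overlapped and the call remained in 1 of the 6 fits without 1 library. Cer1, which blocks Nodal, BMP and Wnt ligands, was at 478, 387 and 357 CPM in endoderm and at 3.15 to 5.06 CPM in hematopoietic mesoderm (log2 fold change 6.73 ± 0.66, edgeR adjusted p = 0.000132). Frzb, a secreted Wnt antagonist, was at 86.4, 105 and 99.8 CPM against 0.241 to 1.73 CPM. Lefty2, a Nodal antagonist, was at 9.07, 24.6 and 16.4 CPM against 0.21 to 0.693 CPM, and it averaged 93.5 and 88.9 CPM in the cardiac fractions.

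Chrd, the BMP antagonist chordin of the node, was at 49.1, 83.4 and 66.1 CPM in endoderm and had 4 counts in hematopoietic mesoderm. Thpo, which encodes the platelet hormone thrombopoietin, was at 50.7, 53.3 and 35.5 CPM in endoderm and had no count in hematopoietic mesoderm. The 2 genes overlap on opposite strands in the GRCm38 annotation, and without a known strand setting their reads cannot be told apart. The same holds for the antisense partners annotated for other genes named here, among them Otx2, Cubn, Dab2, Fn1, Zeb1, Zeb2, Notch1, Bmp4, Tbx3, Runx1 and Unc5c. Nodal itself was at 50.7, 26.8 and 47.7 CPM in endoderm with no count in hematopoietic mesoderm and just missed the threshold (edgeR adjusted p = 0.0522). With the replicate block it passed, at 0.0455. Leaving out 1 endoderm library kept 3 of the 6 calls toward endoderm, and leaving out 1 hematopoietic mesoderm library kept 5 or 6.

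On the side of hematopoietic mesoderm, transcription factors of the hemangioblast, the shared precursor of blood and endothelium, gave most of their calls. Of 37 tested members, 12 were higher in hematopoietic mesoderm and 2, Meis1 and Etv5, in endoderm, with a median of -1.46. Gata2 (chr6:88193891-88207032, plus strand, GRCm38), needed for blood progenitors, was at 382, 389 and 375 CPM in hematopoietic mesoderm and at 0.777 to 3.33 CPM in endoderm (log2 fold change -7.70 ± 1.05, edgeR adjusted p = 0.00156). Fli1, an ETS factor of vessels and blood, was at 334, 361 and 83.8 CPM against 0.159 to 0.832 CPM. Ets1 was at 342, 252 and 149 CPM against 4.28 to 7.25 CPM, and Etv2, the ETS factor that starts the vascular program, at 32.5, 28.2 and 42.6 CPM against 0.259 to 1.11 CPM. None of these overlapped between the types.

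Runx1, required for definitive blood stem cells, was at 739, 949 and 512 CPM in hematopoietic mesoderm and at 22.5 to 46.7 CPM in endoderm. Lmo2, which bridges Tal1 and Gata factors, was at 199, 241 and 113 CPM against 5.88 to 12.1 CPM. Sox7, of the SoxF group that acts in early vessels, was at 226, 337 and 395 CPM against 3.8 to 7.32 CPM, while its relative Sox18 missed the threshold (edgeR adjusted p = 0.0667). Meis1, a homeodomain factor often linked to blood stem cells, went against the list, at 7.25 to 15.5 CPM in endoderm with 1 count in hematopoietic mesoderm. Both cardiac fractions held more of it, at 53.8 and 37.6 CPM. Of the 12 calls toward hematopoietic mesoderm, 4 or 5 remained without any 1 endoderm library and 8 to 11 without any 1 hematopoietic mesoderm library.

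The ETS core GGAAGT and the GATA core AGATAA were searched upstream in the same way. The ETS core was present in 19.8% of genes higher in hematopoietic mesoderm, 21.4% of those higher in endoderm, 25.9% of tested genes and 22.2% of all genes in the table. The GATA core was present in 7.91%, 7.23%, 6.84% and 11.4%. Among the 50 genes higher in hematopoietic mesoderm with the ETS core are Kdr and Egfl7, at chr5:75978647-75978692 (minus strand, GRCm38.p6) and chr2:26580846-26580948 (plus). Among the 20 with the GATA core are Tal1 and Erg, at chr4:115056201-115056246 (plus) and chr16:95459426-95459471 (minus). Egfl7 and Erg lost their calls in 4 and 5 of the 6 fits without 1 library. Each match is in capitals on either strand.
Kdr: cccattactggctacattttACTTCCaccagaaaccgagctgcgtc
Egfl7: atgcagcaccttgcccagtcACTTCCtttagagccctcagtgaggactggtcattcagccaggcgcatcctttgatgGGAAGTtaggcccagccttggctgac
Tal1: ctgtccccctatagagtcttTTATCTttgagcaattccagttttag
Erg: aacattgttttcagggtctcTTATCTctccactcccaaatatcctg
These matches too describe letters and not binding. Egfl7, a matrix protein secreted by endothelium, was at 251, 96.8 and 51.9 CPM in hematopoietic mesoderm and at 11.5 to 19.4 CPM in endoderm.

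Endothelial surface and signal genes followed the transcription factors. Of 60 tested members, 14 were higher in hematopoietic mesoderm and 1, Cd93, in endoderm, with a median of -1.29. Of the 6 tested receptors for vascular endothelial growth factors and angiopoietins, Kdr, Nrp2 and Tek were called and none of their 6 tested ligands was. Kdr is the sort marker of hematopoietic mesoderm, so its call is not independent of the gate. Nrp2, a co-receptor, was at 531, 546 and 660.3 CPM in hematopoietic mesoderm and at 32.0 to 64.1 CPM in endoderm. Tek, the angiopoietin receptor, was at 221, 302 and 122 CPM against 0.713 to 2.98 CPM. Flt1, the decoy receptor for the same ligands as Kdr, overlapped, at 246 to 307 CPM in endoderm and 189 to 724 CPM in hematopoietic mesoderm.

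The thrombin receptor F2r was at 726, 659.7 and 335 CPM in hematopoietic mesoderm and at 108 to 124 CPM in endoderm. Aplnr, the apelin receptor that guides mesoderm migration, was at 789, 563 and 156 CPM against 83.2 to 151 CPM, so library 3 nearly met the endoderm range. Scube2, Ripor2, Ptprb, Calcrl, Shank3, Arhgef15 and Egfl7 completed the calls with Cdh5 and Gata2, a transcription factor gene that is also counted among the 12 hemangioblast calls. Cd93, an endothelial and stem cell surface protein, was at 5.73 to 9.98 CPM in endoderm, had no count in hematopoietic mesoderm and averaged 87.6 CPM in YFP-positive cardiac mesoderm. Of the 14 calls, 8 to 10 remained without any 1 endoderm library and 10 to 14 without any 1 hematopoietic mesoderm library.

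**Figure D4:**
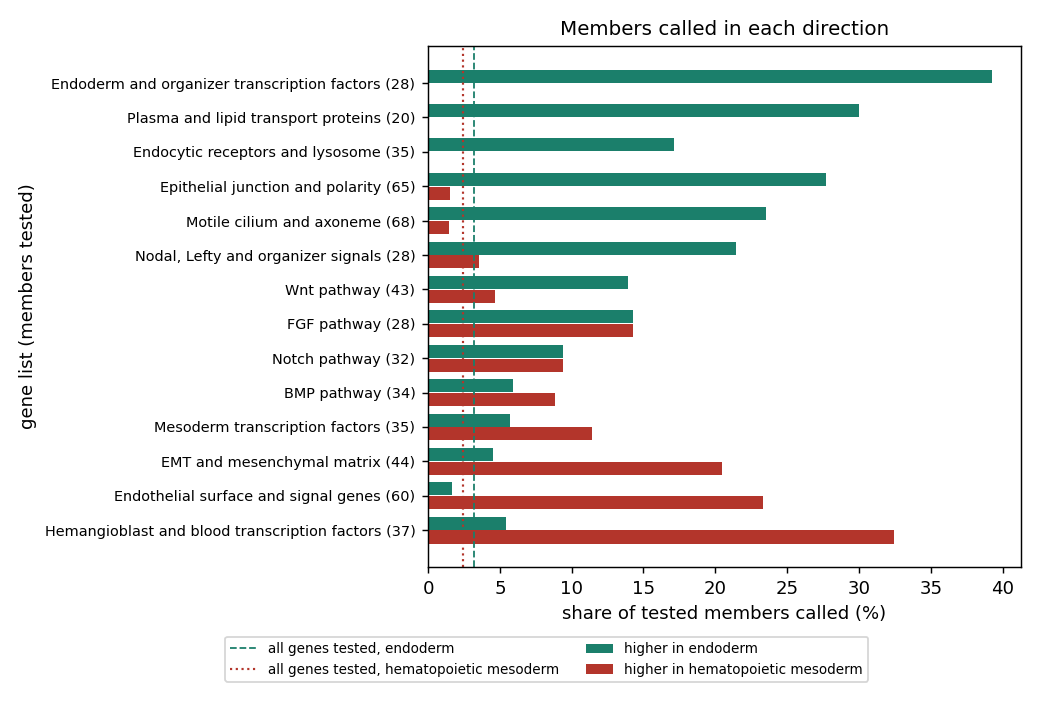
Share of the tested members of each list called higher in endoderm (green) or in hematopoietic mesoderm (red), with the number tested in parentheses and lines at the shares over all genes tested, 3.23% and 2.42%. Endoderm factors (11 of 28) and hemangioblast factors (12 of 37) have the longest bars in their directions, and FGF and Notch lists are even.

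Genes of the mesenchymal state that cells enter on leaving the streak, and of the matrix they secrete, were called in both directions. Of 44 tested members, 9 were higher in hematopoietic mesoderm, 2 in endoderm and 33 did not pass, with a median of -1.47. Vcan, the hyaluronan-binding proteoglycan versican, was at 1375, 1577 and 1052 CPM in hematopoietic mesoderm and at 73.2 to 100.5 CPM in endoderm (log2 fold change -3.996 ± 0.19, edgeR adjusted p = 2.15e-07). Fn1, or fibronectin, was at 2473, 2119 and 2389 CPM against 578 to 728 CPM (-1.80 ± 0.10). For both genes every hematopoietic mesoderm library lay far above every endoderm library.

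The repressors Zeb1 and Zeb2, which turn off epithelial genes, differed by -4.30 ± 0.50 and -2.99 ± 0.23. Zeb2 was at 1460.2, 1010.0 and 787 CPM in hematopoietic mesoderm and at 114 to 165 CPM in endoderm. Snai1, another such repressor and the one active in the streak, was at 0, 0.173 and 46.8 CPM in hematopoietic mesoderm and at 3.02 to 3.63 CPM in endoderm, and did not pass (edgeR adjusted p = 0.406). Without library 3 its direction turned, to 4.84 on the log2 scale (edgeR adjusted p = 0.0166). Tnc, the matrix protein tenascin-C, rested on the same library, at 0.723, 1.91 and 81.7 CPM, and its call was lost without that library or any 1 endoderm library. Of the 9 calls toward hematopoietic mesoderm, 6 remained without any 1 endoderm library and 8 or 9 without any 1 hematopoietic mesoderm library.

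Basement membrane genes split by chain. Lama4, a laminin chain of vessels, was at 140, 162 and 56.7 CPM in hematopoietic mesoderm against 2.97 to 5.31 CPM in endoderm, and Hspg2, the heparan sulfate proteoglycan perlecan, at 260.2 to 553 CPM against 121 to 167 CPM. Frem2 and Fras1, which form an epithelial matrix complex, were on the endoderm side, at 104 to 124 and 45.1 to 100.4 CPM against at most 0.866 and 0.21 CPM. The list of 36 tested members had 4 calls toward endoderm and 2 toward hematopoietic mesoderm, which is 16.7% against 5.65% over all genes. Frem2, Lama4 and Hspg2 kept their calls without any 1 library, but Fras1 did not.

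Mesoderm transcription factors gave few calls. Of 35 tested members of the list, 4 were higher in hematopoietic mesoderm (Tbx20, Tbx3, Hand1 and the ligand gene Bmp4, which is also counted in the BMP list) and 2 in endoderm, with a median of 0.0, and none of 13 tested genes of the streak and nascent mesoderm passed. Tbx20 was at 263, 206 and 518 CPM in hematopoietic mesoderm and at 44.0 to 51.1 CPM in endoderm, and Tbx3 at 257, 280.1 and 477 CPM against 45.6 to 79.7 CPM. Hand1, a factor of extraembryonic and cardiac mesoderm, was at 47.5, 81.4 and 417 CPM in hematopoietic mesoderm and at 3.63 to 36.7 CPM in endoderm (edgeR adjusted p = 0.0325), and lost its call without that library, endoderm library 1 or endoderm library 2. Cardiac mesoderm held as much or more Tbx20, at 522 and 389 CPM, and Hand1, at 335 and 333 CPM.

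Genes of the major signals were called in both directions. Within the FGF list of 28, the 4 calls toward hematopoietic mesoderm were Fgf genes and the 4 toward endoderm were receptors, targets or feedback genes. Fgf3 (chr7:144838083-144844436, plus strand, GRCm38) was at 405, 246 and 208 CPM in hematopoietic mesoderm and at 1.19 to 4.14 CPM in endoderm (log2 fold change -6.72 ± 0.57, edgeR adjusted p = 4.3e-05). Fgf10, Fgf13 and Fgf15 differed by -2.43 ± 0.40, -2.91 ± 0.73 and -2.73 ± 0.70. On the endoderm side were Etv5, the FGF target Flrt3, the feedback inhibitor Spry1 and the decoy receptor Fgfrl1. The difference between the Fgf genes and the other members was not tested. Without any 1 endoderm library, 2 of the 4 Fgf gene calls and none of the 4 others remained. Fgf13 and Fgf15 lost their calls in each of the 6 fits without 1 library.

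In the Wnt list of 43, 6 genes were higher in endoderm and 2 in hematopoietic mesoderm, which is 18.6% against 5.65% over all genes. The receptor Fzd5 was at 443, 489 and 530 CPM in endoderm against 6.75 to 29.6 CPM, and the co-receptor kinase Ror1 was at 43.3 to 66.8 CPM with 1 count in hematopoietic mesoderm. Tcf7l2, a transcription factor of the pathway, was at 472 to 491 CPM against 30.9 to 131 CPM. Rspo3, an amplifier of Wnt signals that also acts in vessels, was at 357, 383 and 163 CPM in hematopoietic mesoderm and 37.4 to 73.4 CPM in endoderm, and the Wnt inhibitor Apcdd1 at 70.8 to 94.5 CPM against 2.61 to 6.99 CPM. None of 8 tested Wnt ligands passed. Rspo3 and Apcdd1 kept their calls without any 1 library, as did 4 of the 6 genes on the endoderm side.

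Notch signalling passes between neighbouring cells, from Delta and Jagged ligands to Notch receptors. Of 32 tested members, 3 were higher in each type. The receptors Notch1 and Notch2 were higher in hematopoietic mesoderm, Notch1 at 119, 67.5 and 206 CPM against 14.7 to 27.7 CPM in endoderm (log2 fold change -2.67 ± 0.43, edgeR adjusted p = 0.00482) and Notch2 at 514, 524 and 698 CPM against 234 to 270 CPM. The ligands Dll1 and Dll3 were higher in endoderm, but low, Dll1 at 20.5, 19.8 and 2.14 CPM with 1 count in each hematopoietic mesoderm library. Both ligands were higher on average in both fractions of cardiac mesoderm, Dll1 at 82.8 and 72.7 CPM. With limma voom the adjusted p of Dll1 was 0.213. The target Hes1 was at 58.1 to 77.9 CPM in endoderm and 17.4 to 55.4 CPM in hematopoietic mesoderm, without overlap and without passing (edgeR adjusted p = 0.213), and none of 5 tested targets passed.

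BMP and guidance genes added smaller groups. Bmp4, the ligand that induces yolk sac mesoderm, was at 136, 168 and 275 CPM in hematopoietic mesoderm and at 8.91 to 37.3 CPM in endoderm (edgeR adjusted p = 0.00394). The pathway's feedback inhibitors Smad6 and Smad7 were higher with it, by -3.40 ± 0.66 and -2.36 ± 0.51 on the log2 scale, whereas the effector Smad5 was higher in endoderm, at 218 to 223 CPM against 97.1 to 107 CPM. Among 82 tested receptor kinases and guidance genes, 9 were higher in endoderm and 4 in hematopoietic mesoderm, which is 15.9% against 5.65% over all genes. Unc5c, a netrin receptor, was at 429, 542 and 143 CPM in hematopoietic mesoderm and 0.518 to 2.54 CPM in endoderm, while its ligand Ntn1 was at 67.9 to 83.9 CPM in endoderm with 1 count each in 2 hematopoietic mesoderm libraries. Efnb2, the arterial ephrin, was at 325 to 608 CPM in hematopoietic mesoderm and 153 to 170.3 CPM in endoderm. Of the 9 calls toward endoderm, 3 remained without any 1 endoderm library.

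Metabolic, replication and transport lists were measured as well. Of 15 tested retinoid genes, 3 were higher in endoderm, among them Stra6, the membrane receptor for retinol uptake, at 39.6, 33.4 and 21.4 CPM against at most 0.241 CPM. None of 24 tested sterol synthesis genes passed, and their median was 0.01. Of 26 tested glycolysis and glucose transport genes, Ldhb was higher in endoderm and Pfkp and Aldoa in hematopoietic mesoderm. That is 11.5%, against 5.65% over all genes. Ldhb, Pfkp and Aldoa lost their calls in 4, 2 and 5 of the 6 fits without 1 library. Of 40 tested replication genes, 2 were higher in hematopoietic mesoderm, which is 5.0% beside the 5.65% over all genes. Among 202 solute carriers, 10 were higher in endoderm and 6 in hematopoietic mesoderm, which is 7.92%, and none of 47 tested channel genes passed. Of these solute carrier calls, 1 to 3 of the 10 and 1 of the 6 remained without any 1 endoderm library, and 7 and 3 remained with the replicate block.

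Markers of cells that neither gate was meant to hold were summed by library. Of 12 tested epiblast markers, 3 were higher in endoderm (Dnmt3b, Slc7a3 and Nanog), and 9 did not overlap in that direction. Over all genes tested, 3.23% were called higher in endoderm and 23.4% did not overlap in that direction. The summed level of the epiblast markers was 2176 to 2278 CPM in endoderm and 775 to 1381 CPM in hematopoietic mesoderm. Pou5f1, a defining member, was at 22.9 to 35.1 CPM in endoderm and 0 to 2.42 CPM in hematopoietic mesoderm (edgeR adjusted p = 0.121). The part of epiblast cells in the endoderm values, such as those of Otx2, was not tested.

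Cardiac and paraxial markers summed to 86.6 to 108 CPM in endoderm and 257 to 612 CPM in hematopoietic mesoderm, with 1 of 11 tested, Tbx20, higher in the latter. Trophoblast markers summed to 77.7 to 244 and 84.9 to 486 CPM, with 1 call in each direction, and parietal endoderm markers to 1169 to 1476 and 926 to 1316 CPM. Of 12 leukocyte markers 1 was tested and not called, and the defining marker Ptprc was at 0 in every library. Their summed level was 0.238 to 4.79 CPM in endoderm and 37.8, 2.6 and 0 CPM in hematopoietic mesoderm libraries 1, 2 and 3. Genes of the dissociation and stress response summed to 2069 to 2623 CPM in endoderm and 2923 to 4294 CPM in hematopoietic mesoderm, where Myc and Hsph1 of 27 tested were higher. That is 7.41%, against 5.65% over all genes tested. The part of these cells and of stress in the lists above was not tested.

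The cardiac libraries placed most of the called genes between the 2 types. Of the genes higher in endoderm, 66.5% had both cardiac means between those of hematopoietic mesoderm and endoderm, and 9.19% had both above endoderm. Of those higher in hematopoietic mesoderm, 72.0% had both cardiac means in between and 7.58% had both above hematopoietic mesoderm. Over all genes tested, 25.0% and 26.7% of those higher on average in endoderm and in hematopoietic mesoderm had both cardiac means in between. The called genes were selected for a wide gap between the 2 types, so these shares are given as a description.

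Of all 800 genes called, 147 kept their call without each of the 6 libraries in turn, and 176 kept it in none of these 6 fits. Among the 237 called genes in the lists, in the families and among the largest changes, 74 kept it in all 6. They include Apob, Cubn, Otx2, Hnf4a, Cer1, Foxj1, Rfx3, Pkd1l1 and Thpo in endoderm. They include Vcan, Fn1, Zeb1, Zeb2, Gata2, Fli1, Tal1, Cdh5, Fgf3, Bmp4 and Notch1 in hematopoietic mesoderm, besides its sort marker Kdr. Foxa2 did not, since it lost its call without any 1 library, to an adjusted p of 0.105 at the highest.

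**Figure D5:**
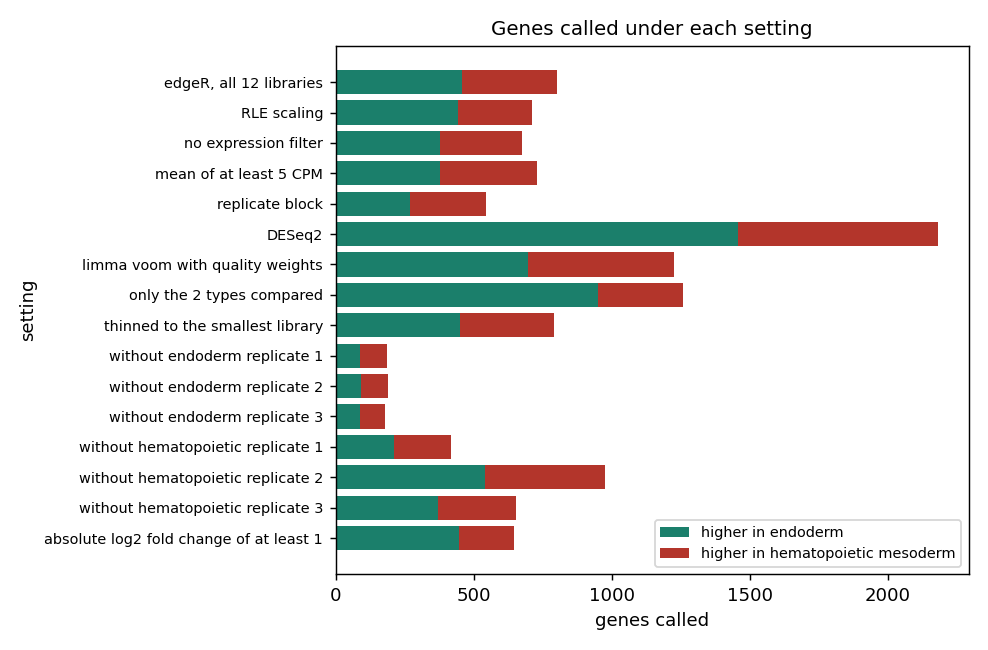
Number of genes called higher in endoderm (green) and in hematopoietic mesoderm (red) under each setting, stacked. The totals run from 180 without endoderm library 3 to 2182 with DESeq2, against 800 in the edgeR fit of all 12 libraries.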

How the data were processed

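Bulk RNA-seq counts of 12 libraries (4 cell types, 3 libraries each) were used as the authors deposited them, as raw counts per gene. Per the submitters' processing notes the build was mm10 and the tools STAR 2.5.0a, Picard, HTSeq 0.6.0 and DESeq2, with no role given. Annotation release and strand setting are not given in the sources used here. Rows for reads outside genes were removed, which left 18.4% to 21.5% of each total in the 6 libraries compared. Of 38924 genes, 37607 had a symbol in the reference name table.

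All 12 libraries were fitted with edgeR 4.0.16 (R 4.3.3) by the quasi-likelihood test on cell type, with trimmed mean of M-values scaling, its default expression filter, 8 residual degrees of freedom and Benjamini-Hochberg adjustment over 14170 genes. Called means an adjusted p under 0.05. Log2 fold changes are endoderm minus hematopoietic mesoderm. Intervals and floors (3 counts per library) cover counting error only. Alternatives were other scaling and filters, a replicate block, DESeq2 1.42.0, limma 3.58.1 voom, fewer libraries and thinned counts. On simulated counts edgeR called 0%, 24%, 38% and 58% of genes changed by 2-, 4-, 8- and 16-fold (50 each among 13406 genes) and 1 of 13207 unchanged genes. Like the edgeR fit itself, the simulation gave each gene the same spread in every type. In the data the coefficient of variation was 0.394 in endoderm and 1.155 in hematopoietic mesoderm, so these rates cannot be taken as those of this contrast. The p-values of the main fit rest on the same assumption of equal spread.

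Gene lists and families were compiled from general knowledge with earlier results of these data known. The genes named were the sort markers, the 15 largest non-overlapping changes per direction at a mean of at least 10 CPM, up to 8 called members per list and direction, 5 per family and direction, and each list's defining members. Genes named outside that rule were chosen after their values were seen. These are Gsc, Foxa3, Gata4, Gata6, Nodal, Dnah11, Lrp2, Sox18, Hes1, Pou5f1, the later list members and all genes of the closing section.

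The labels state no design, so same-numbered endoderm and hematopoietic mesoderm libraries were not treated as pairs. Their deviations from the type means correlated at 0.018, 0.017 and -0.0065 for numbers 1, 2 and 3. With so few libraries these values cannot decide whether same-numbered files shared a batch, and the replicate block is given as an alternative. Promoter sequences were RefSeq's (GRCm38.p6) and gene coordinates came from a GRCm38 annotation.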

Additional observations from a re-analysis of the deposited data

How the results depend on the processing

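In none of the settings run did any of the 800 calls change sign. Leaving out 1 library at a time moved the number of genes called between 180 and 976, of those higher in endoderm between 86 and 539 and of those higher in hematopoietic mesoderm between 93 and 437. Without endoderm library 1, 2 or 3 the totals were 184, 188 and 180, and without hematopoietic mesoderm library 1, 2 or 3 they were 417, 976 and 654. DESeq2 called 2182 genes (1458 higher in endoderm, 724 in hematopoietic mesoderm), including 793 of the 800. On the simulated counts, which unlike the data had equal spread in the 2 types, DESeq2 called 60 of 13970 unchanged genes. Limma voom with quality weights called 1225 (696 and 529), including 647 of the 800. A fit of only the 2 types called 1258 (948 and 310), including 627. Adding a minimum change of 1 on the log2 scale left 448 and 197. Other scaling, filters and thinning gave totals of 675 to 790. The cause of these differences was not tested.

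With the replicate block, 545 genes were called (268 higher in endoderm, 277 in hematopoietic mesoderm), and 514 of the 800 calls remained. Of the 237 called genes named or listed, 177 remained.

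Gata6 and Snai1, neither called, changed direction. The log2 fold change of Gata6 was 0.0104 with the replicate block, 0.61 with limma voom and -0.56 to 0.68 over the fits without 1 library, the highest being without hematopoietic mesoderm library 3. That of Snai1 was 2.58 with limma voom and -2.79 to 4.84 over the fits without 1 library, the highest again without that one. In hematopoietic mesoderm, where 3 counts equal 0.52 to 0.723 CPM, 34.1% of the genes called higher in endoderm had no count. With counts thinned to the smallest library, 450 genes were called higher in endoderm. The part of depth in the missing counts was not tested.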

Other observations

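The following lists were compiled after the values had been seen and are given as descriptions. Of 54 tested genes for ribosome biogenesis, 15 were called higher in hematopoietic mesoderm (log2 fold changes of -0.53 for Rsl1d1 to -2.11 for Rrp9), none in endoderm and 39 did not pass, and 51 had a log2 fold change below 0 (median -0.65, against 0.07 over all genes tested). Between 48 and 52 were below 0 under every setting run, including the other scaling. Ncl, the nucleolar protein nucleolin, was at 1928, 1608 and 1662 CPM in hematopoietic mesoderm and at 1168, 1061 and 1033 CPM in endoderm (-0.67 ± 0.09, edgeR adjusted p = 0.00169). The helicase gene Ddx21 was at 768, 767 and 895 CPM against 369, 398 and 398 CPM. Both kept their calls without any 1 library, but of the 15 calls 2 remained without any 1 endoderm library. Of 63 translation factors 7 were called, among them Eef2 and Eif5a, and of 46 nuclear transport genes 8, among them the importin gene Ipo7, all toward hematopoietic mesoderm. These shares are 11.1% and 17.4%, against 2.42% in that direction over all genes tested. Without endoderm library 1, 2 and 3 in turn, 1, 0 and 0 of the 7 calls and 1, 0 and 1 of the 8 remained. Of 83 tested ribosomal protein genes 2 were called in that direction, and neither with the other scaling. That is 2.41%, beside 2.42% over all genes tested, so the calls do not set this family apart. Of the 83, 78 had a log2 fold change below 0 with either scaling (median -0.62, or -0.59 with the other scaling). Of 22 tested mitochondrially encoded genes 3 were called in that direction, none with the other scaling, and all 22 were below 0 with either. The share of counts in ribosomal protein genes was 0.407% ± 0.0236 (SD, n = 3) in endoderm and 0.56% ± 0.0858 in hematopoietic mesoderm, and that in mitochondrially encoded genes 0.252% ± 0.0385 and 0.343% ± 0.05. The part of these shifts in the list above was not tested. Myc, a known activator of ribosome biogenesis genes, was at 477, 377 and 496 CPM in hematopoietic mesoderm and at 105, 152 and 131 CPM in endoderm. It was also called in the dissociation and stress list above, and its part in the ribosome biogenesis values was not tested. The cell cycle gene Ccnd2 was at 665, 529 and 501 CPM against 86.4, 115 and 82.0 CPM.

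Regulators of the pluripotent epiblast were called in both directions. Of 38 tested, 15 were higher in endoderm and 2 in hematopoietic mesoderm, which is 44.7% against 5.65% over all genes. The DNA demethylase gene Tet1 was at 763, 733 and 832 CPM in endoderm against 331, 448 and 398 CPM in hematopoietic mesoderm, and kept its call without any 1 library. The 2 genes in the other direction, Lin28b and Trim71, belong to the let-7 microRNA pathway. Lin28b was at 698, 647 and 691 CPM in hematopoietic mesoderm and at 292, 388 and 379 CPM in endoderm. Without endoderm libraries 1, 2 and 3 in turn, 6, 7 and 7 of the 15 calls remained.

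Imprinted genes, expressed from 1 parental allele, gave 4 calls toward endoderm and 5 toward hematopoietic mesoderm among 38 tested. That is 23.7%, against 5.65% over all genes tested. Igf2 and its neighbour H19 were both higher in hematopoietic mesoderm, Igf2 at 1065, 775 and 763 CPM against 421, 218 and 287 CPM and H19 at 562, 515 and 571 CPM against 417, 259.6 and 308 CPM. Gnas and Nnat were higher in endoderm, Gnas at 113, 98.9 and 121 CPM against 35.9, 25.8 and 30.2 CPM. H19 lost its call without 4 of the 6 libraries. Without endoderm library 1, 2 and 3 in turn, 1, 1 and 0 of the 4 calls toward endoderm and 5, 3 and 2 of the 5 toward hematopoietic mesoderm remained.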
